A study of Homo sapiens with 4 samples.

Results

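The genes described here are 40 actomyosin contractile and actin-binding genes, chosen by symbol for what their proteins do; no measured value entered the rule, although earlier results of these data were known when it was written. They encode actins, filament crosslinkers, calponins, tropomyosins, myosin heavy and light chains, the enzymes that switch myosin on and off, linkers to adhesions, intermediate filaments, and the transcription factors of this gene programme. All 40 symbols were found among the 63677 genes of the count table. Of these 40, 39 had enough counts to be tested, as did 18252 genes of the whole table.

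Contractile force in a non-muscle cell comes from filaments of myosin II pulling on bundles of actin, the stress fibres. Myosin light chain kinase and the kinases ROCK1 and ROCK2 raise the phosphorylation of the myosin regulatory light chain, and myosin phosphatase removes it. When monomeric actin is used up by filament assembly, the cofactors MRTFA and MRTFB enter the nucleus and bind SRF, the serum response factor, which activates actin, myosin and calponin genes through a DNA element called the CArG box. In the liver, stellate cells gain this contractile apparatus as they become myofibroblasts, and α-smooth muscle actin, the product of *ACTA2*, is the usual marker of that change.

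RNA was measured in LX-2, an established human hepatic stellate cell line, in 2 libraries labelled miControl and 2 labelled miR-6133-5p. The first group received a negative control miRNA mimic and the second a synthetic mimic of miR-6133-5p, each at 20 nM. Both groups were given 5 ng/mL of rhTGF-β1, recombinant human transforming growth factor β1, 24 h after transfection, and RNA was taken 24 h after that, so no group without the cytokine is compared here. The cells are a single line carrying an artificial dose of the miRNA, and the labels do not say whether replicates were separate cultures, so that p-values measure the spread between these libraries, which may be technical.

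Library totals lay between 51862006 and 93811213 counts, and the deepest library was replicate 2 of miR-6133-5p. Levels are given in CPM, the count relative to a library total scaled by edgeR's TMM factor. A single count was worth between 0.0101 and 0.0203 CPM. Differences are log2 fold changes of miR-6133-5p against miControl with their standard error (SE), from the 2-sided quasi-likelihood test of edgeR, with Benjamini–Hochberg adjustment across the tested table. A gene was called lower or higher at an adjusted p-value below 0.01 with a log2 fold change beyond 0.8. Of 14 stellate cell markers, 12 had enough counts to be tested, 2 were called lower and 4 had a positive log2 fold change. *COL1A1*, a chain of type I collagen, was at 3112 and 2723 CPM in miControl and at 995 and 1133 CPM in miR-6133-5p, *TIMP1*, an inhibitor of matrix proteases, was at 199 and 186 CPM against 280 and 235 CPM and did not pass, and *PDGFRB*, a receptor of platelet-derived growth factor, had overlapping groups with means of 41.7 and 42.8 CPM. Of the 14 stellate markers, 5 stayed under 1 CPM in every library, *THY1*, *HAND2*, *DCN*, *LUM* and *LRAT*. The last 2 reached at most 0.0918 CPM. Markers of hepatocytes summed to between 2.83 and 3.99 CPM and of endothelial cells to between 5.55 and 6.21 CPM. Those of macrophages and leukocytes summed to between 9.35 and 11.6 CPM. The cholangiocyte and epithelial list summed to 83.9 and 85.4 CPM in miControl and to 39.9 and 36.8 CPM in miR-6133-5p, most of it *SOX9*, which was called lower from 80.2 and 80.8 CPM to 33.1 and 29.5 CPM. *KRT7* of that list was higher at an adjusted p-value of 0.0032 in edgeR, from 3.62 and 4.44 CPM to 6.61 and 7.08 CPM, while *EPCAM*, *CDH1* and *KRT19* reached at most 0.182 CPM.

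The contractile and actin-binding genes that passed the test were all lower in miR-6133-5p. Of the 39 tested, 8 were called lower: *ACTA2*, *SRF*, *ACTG2*, *TPM3*, *MYH9*, *PDLIM5*, *CALD1* and *TAGLN*. That is 20.5% of them, where 5.54% of all tested genes were called lower. None was called higher by edgeR or by DESeq2, where 2.9% of all genes were by edgeR. At an unadjusted p-value below 0.05 in edgeR 2 were higher, and the share of all genes at that cut is not given here. At an adjusted p-value below 0.01 and any size, 14 of the 39 were lower, or 35.9%, against 10.9% of all genes, and 0 were higher, against 7.96%. In 22 of the 39 the treated pair of libraries was wholly under the control pair, as in 31.3% of all genes, and in 2 it was wholly over it, as in 33.2%. The median log2 fold change was -0.18 over these genes and 0.03 over all genes.

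The count of 14 fell to 6 without replicate 1 and to 9 without replicate 2 of miControl, where the lone library left was assumed to vary like those of the other group, and 3 genes were higher by this rule without replicate 1 of miR-6133-5p. When edgeR's glmTreat tested against the fold threshold itself, 3 genes stayed lower, *ACTA2*, *SRF* and *TPM3*. The share of all genes is not given here for glmTreat or for the counts with a library left out. Those counts therefore have no background beside them. Scaled by library totals alone, the median of all genes rose by 0.16 on the log2 scale and the share of lower genes among all calls went from 65.6% to 42.1%; as that scaling moves every gene alike, the median of the contractile genes lay 0.21 below that of all genes either way.

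**Figure D1:**
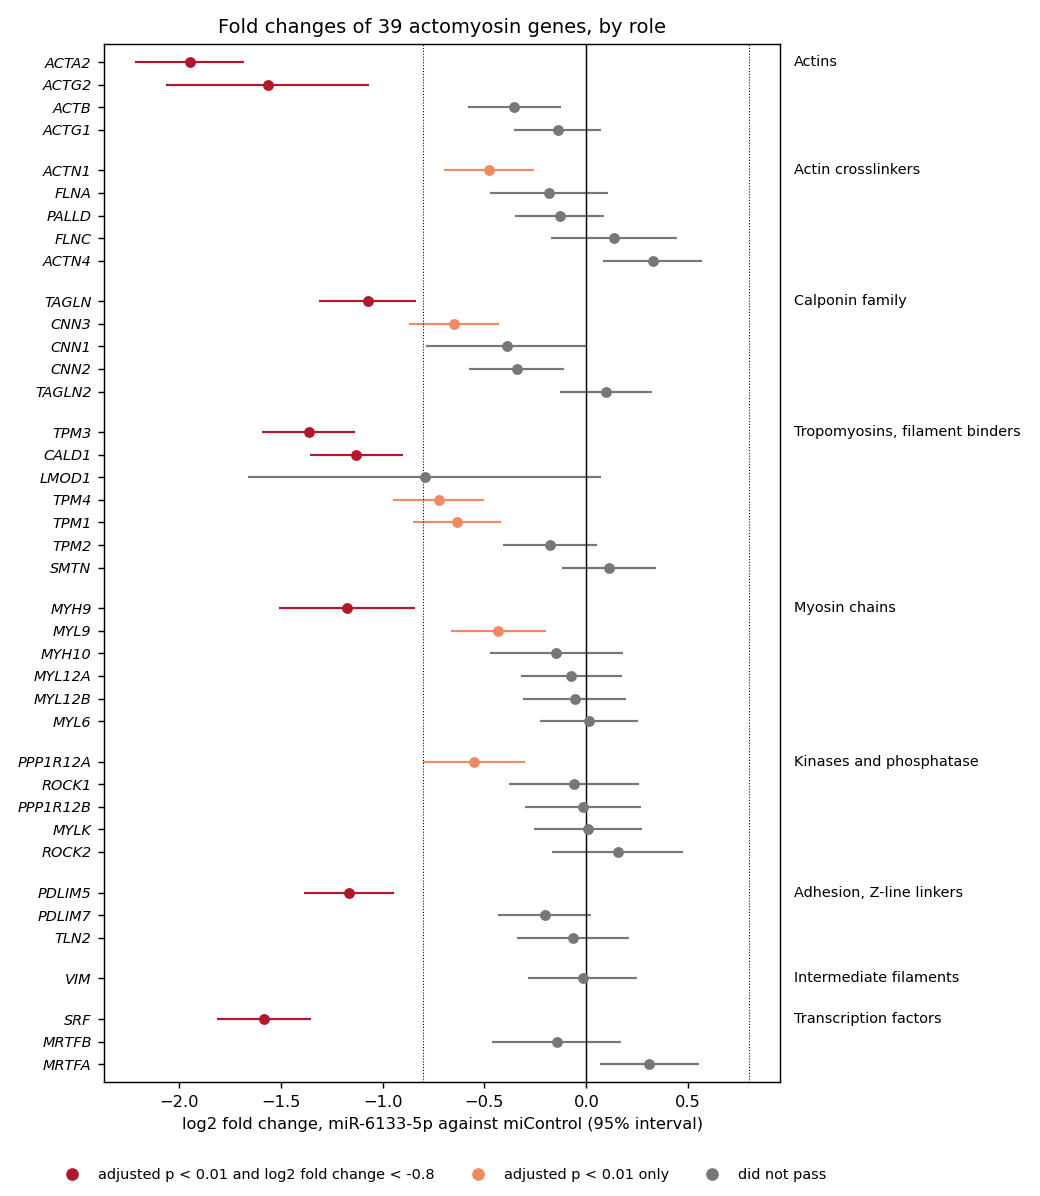
Log2 fold change of miR-6133-5p against miControl for the 39 tested genes, grouped by role, with points for the edgeR estimate and bars for its 95% interval; dotted lines mark the fold threshold of 0.8 in either direction. The 8 genes in dark red were called lower, the 6 in orange passed the adjusted p-value at a smaller size, and the 25 in grey passed neither.

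Together the 40 genes took 4.54% and 4.31% of the scaled counts in miControl and 3.29% and 3.42% in miR-6133-5p. In CPM their sum was 44224 ± 1642 (SD, n = 2) and 33512 ± 916 (SD, n = 2). The groups did not overlap. The mean of *MYH9* fell by 3508 CPM, the largest part of that difference, and without it the sum of the other genes was 37926 ± 1360 in miControl and 30722 ± 111 in miR-6133-5p (SD, n = 2). Because these are bulk libraries, fewer contractile cells and less contractile mRNA per cell cannot be told apart.

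Among the transcription factors, *SRF* fell to 33.4% of its control level, whereas *MRTFA* and *MRTFB* did not pass. *SRF* (ENSG00000112658, chr6:43139007-43149244 on GRCh37, + strand) stood at 82.9 and 80.0 CPM in miControl and at 25.8 and 28.6 CPM in miR-6133-5p. Both treated libraries were well below both controls, and the spread within each group was small. The log2 fold change was -1.58 ± 0.11 (SE, edgeR adjusted p = 3.1e-07). *MRTFA*, the cofactor that carries the actin signal to SRF, was at 67.8 and 57.9 CPM in miControl and at 73.3 and 82.4 CPM in miR-6133-5p. Its treated libraries were both above the controls, but the log2 fold change of 0.31 ± 0.11 did not pass (edgeR adjusted p = 0.055). *MRTFB* was at 49.8, 55.2, 38.8 and 55.9 CPM in the same order, so that its groups overlapped.

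SRF acts at CArG boxes, which consist of CC, then 6 bases that are each A or T, then GG. The RefSeq promoters of build GRCh38.p14, 250 bases before to 50 after each start, held an entry for 36 of the 40 genes. *ACTB*, *DES*, *MYL9* and *TAGLN* had none and are left out of the comparisons of genes with and without a box, although *TAGLN* was called lower. A CArG box on either strand was present in 10 of these 36, or 27.8%, against 1.52% of 11869 other tested genes. Counted by promoter entry instead of by gene, it was present in 10 of the 72 entries of these genes and in 1.29% of all 35116 entries. The boxes of *SRF* and *ACTG2* are shown because both genes were called lower and each has a pair of boxes, and that of *ACTG1* because it was the most abundant of the 40 genes per kilobase and was not called; capitals mark the box.
*SRF*, first base of the box 30 before the start, chr6:43171229-43171258, + strand: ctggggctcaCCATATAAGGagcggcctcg
*SRF*, first base 10 before the start, chr6:43171249-43171278, + strand: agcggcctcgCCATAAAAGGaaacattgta
*ACTG2*, first base 110 before the start, chr2:73892888-73892917, + strand: gaaaaaaccaCCTTATATGGtaatattgct
*ACTG2*, first base 73 before the start, chr2:73892925-73892954, + strand: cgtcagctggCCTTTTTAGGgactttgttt
*ACTG1*, first base 94 before the start, chr17:81512874-81512903, - strand: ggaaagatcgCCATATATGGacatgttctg

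The genes with a box did not move as one. Besides *SRF* and *ACTG2*, *TPM4* and *ACTN1* had one and were lower at the adjusted p-value alone. The other 6, *CNN2*, *FLNA*, *ACTG1*, *MYLK*, *SMTN* and *ROCK2*, did not pass. The median log2 fold change was -0.26 over the 10 genes with a box and -0.15 over the 26 with a promoter and no box, of which 5, or 19.2%, were called lower. Among other tested genes 11.6% of those with a box and 6.23% of those without were called lower. With a window of 1000 bases before to 200 after the start in GRCh37, 12 of the 36 genes had a box, against 5.14% of other tested coding genes. Of the 12, 7 also had one in the shorter window, while *TPM4*, *ACTN1* and *MYLK* had one in the shorter window alone. The starts used therefore differed, and the wider window did not contain the shorter one in every gene. The part of window width in the calls was not tested. Of these 12 genes 5 were called lower, *SRF*, *ACTG2*, *CALD1*, *MYH9* and *TPM3*, and 2 of the 24 without, against 6.87% and 6.51% of other genes with and without a box. A match to these letters is a description of the sequence and not a measured binding site. Likewise, a gene counted as without a box has no exact match in the window, which does not show that SRF has no site there.

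The 4 actins split between the smooth muscle isoforms and the cytoplasmic ones. *ACTA2* (ENSG00000107796, chr10:90694831-90751096, - strand) was at 41.6 and 34.8 CPM in miControl and at 10.03 and 9.78 CPM in miR-6133-5p. The treated libraries agreed closely and held 25.9% of the control level. Its log2 fold change of -1.95 ± 0.12 was the largest fall among the 39 genes (SE, edgeR adjusted p = 2.1e-07). *ACTG2*, the enteric smooth muscle actin (ENSG00000163017, chr2:74119441-74146992, + strand), was at 8.79 and 8.34 CPM against 3.82 and 2.06 CPM. The treated libraries were both lower but differed from one another, having 250 and 204 counts at unequal depth. Its log2 fold change was -1.56 ± 0.23 (SE, edgeR adjusted p = 2.1e-04), and without replicate 1 of miControl the adjusted p-value was 0.011, past the threshold of 0.01.

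*ACTB*, β-actin, was at 6164 and 5612 CPM in miControl and at 4921 and 4297 CPM in miR-6133-5p. Its groups did not overlap, but the log2 fold change of -0.35 ± 0.11 had an adjusted p-value of 0.022 in edgeR and of 0.0080 in DESeq2. *ACTG1*, γ-actin, was at 7044, 6479, 6336 and 5931 CPM in the same order, with a log2 fold change of -0.14 ± 0.10 that did not pass and turned to 0.02 when scaled by library totals alone. Per kilobase of transcript these isoforms dominated. *ACTG1* made up between 51.6% and 56.5% of the 4 actins in every library, whereas *ACTA2* made up 0.434% and 0.397% in miControl and 0.123% and 0.133% in miR-6133-5p. Only read pairs placed at a single locus were counted, and actin genes share long stretches of near-identical coding sequence, so that levels of single actins are uncertain to that extent. The exons of *ACTA2* overlap *ACTA2-AS1* on the other strand over 35.9% of their bases, and that gene had a mean of 0.388 CPM in miControl and 0.109 CPM in miR-6133-5p.

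**Figure D2:**
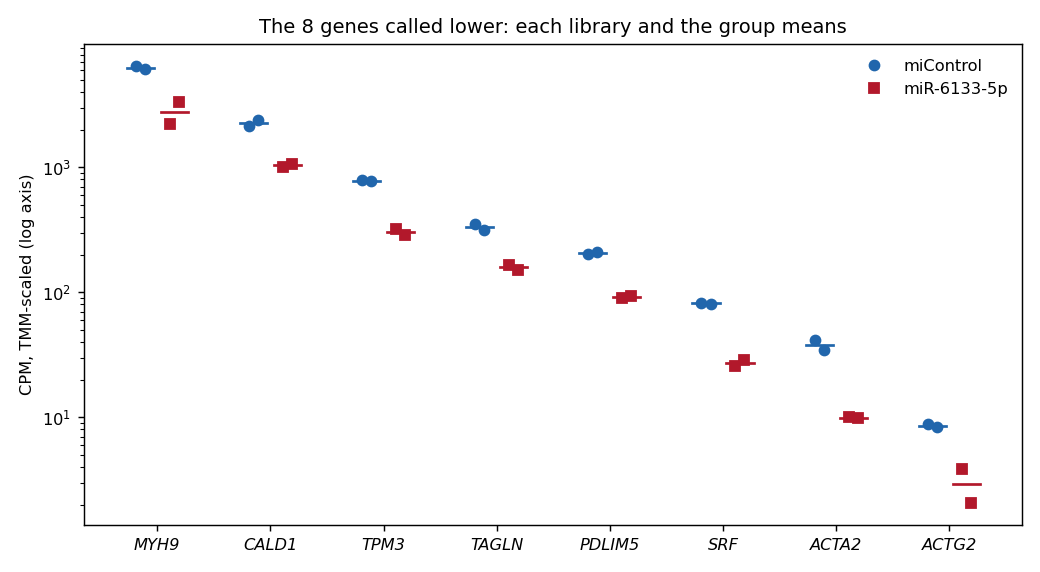
CPM on a log axis of the 8 genes called lower, with a point for each library and a line at each group's mean; blue circles are miControl and red squares miR-6133-5p. In every gene both red squares lie below both blue circles, from *MYH9* at 6497 and 6098 against 2220 and 3360 CPM down to *ACTG2* at 8.79 and 8.34 against 3.82 and 2.06 CPM.

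Tropomyosins run along the actin filament and set which proteins can bind it. *TPM3* (ENSG00000143549, chr1:154127784-154167124, - strand) was at 790 and 775 CPM in miControl and at 319 and 289 CPM in miR-6133-5p. The groups were far apart relative to their spread, with a log2 fold change of -1.36 ± 0.10 (SE, edgeR adjusted p = 8.7e-07). *TPM4* was at 2820 and 2857 CPM against 1826 and 1612 CPM, and *TPM1* at 1901 and 1848 CPM against 1246 and 1169 CPM. Both passed the adjusted p-value without reaching the fold threshold, at log2 fold changes of -0.72 ± 0.10 and -0.63 ± 0.10. *TPM2* was lower in both treated libraries but did not pass, at -0.18 ± 0.11. *TPM1-AS*, which lies opposite 22.7% of the exon bases of *TPM1*, was also called lower, from a mean of 244 to 127 CPM. The strand setting of the counting is not given in the sources used here, so reads of that pair cannot be told apart with certainty.

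Caldesmon, encoded by *CALD1* (ENSG00000122786, chr7:134429003-134655480, + strand), binds actin and tropomyosin and holds back myosin. It was at 2129 and 2407 CPM in miControl and at 1009 and 1065 CPM in miR-6133-5p. Both treated libraries were far below the controls, and the log2 fold change was -1.13 ± 0.11 (SE, edgeR adjusted p = 4.5e-06). Smoothelin, *SMTN*, a stress fibre protein of contractile smooth muscle, had overlapping groups and a log2 fold change of 0.11 ± 0.11. *LMOD1*, a leiomodin that nucleates filaments in smooth muscle, had between 25 and 49 counts in each library and its log2 fold change of -0.79 ± 0.40 did not pass.

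In the calponin family, *TAGLN*, or SM22α, an early smooth muscle marker, fell (ENSG00000149591, chr11:117070086-117078180, + strand). It was at 353 and 316 CPM in miControl and at 167 and 151 CPM in miR-6133-5p. The groups were separate, with a log2 fold change of -1.07 ± 0.11 (SE, edgeR adjusted p = 9.7e-06). Its exons overlap *PCSK7* on the other strand over 34.1% of their bases, and *PCSK7* was called lower as well, at -1.29 ± 0.11. On the same strand the exons of *TAGLN* overlap the gene ENSG00000280143 over 38.1% of their bases, which no strand setting can separate. *CNN3*, the calponin of non-muscle cells, went from 933 and 934 CPM to 623 and 569 CPM and passed the adjusted p-value alone, at -0.65 ± 0.10. *CNN1*, the smooth muscle calponin, was at 6.57, 4.74, 4.54 and 4.09 CPM, and its difference of -0.39 ± 0.18 did not pass. *CNN2* was also lower in both treated libraries, at -0.34 ± 0.11 with an adjusted p-value of 0.029 in edgeR, and *TAGLN2* had overlapping groups at 0.10 ± 0.10.

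Of the crosslinkers that bundle filaments, 1 of 5 was lower at the adjusted p-value alone. *ACTN1*, a non-muscle α-actinin, was at 2191 and 1991 CPM in miControl and at 1457 and 1546 CPM in miR-6133-5p. Its difference was -0.48 ± 0.10 on the log2 scale (SE, edgeR adjusted p = 0.0032), and the adjusted p-value was 0.029 when scaled by library totals alone. *ACTN4*, the other non-muscle α-actinin, was at 900 and 831 CPM against 991 and 1177 CPM. Its treated libraries were both above the controls, at 0.33 ± 0.11, with an adjusted p-value of 0.043 in edgeR that became 0.0042 when scaled by library totals alone. The filamins *FLNA* and *FLNC* and palladin, *PALLD*, did not pass. *FLNA* was at 5302 and 4794 CPM in miControl, and its treated libraries, at 3740 and 5150 CPM, differed from each other by more than the group means did.

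Non-muscle myosin II consists of heavy chains that form the motor, regulatory light chains and an essential light chain. *MYH9*, the heavy chain of myosin IIA (ENSG00000100345, chr22:36677326-36784055, - strand), was at 6497 and 6098 CPM in miControl and at 2220 and 3360 CPM in miR-6133-5p. Both treated libraries lay far below the controls, yet differed from each other by more than the controls did. The log2 fold change was -1.17 ± 0.15 (SE, edgeR adjusted p = 8.1e-05). Leaving out a library moved it between -1.52 and -0.92, and without replicate 1 of miControl its adjusted p-value was 0.011. *MYH10*, the heavy chain of myosin IIB, was at 230, 231, 167 and 249 CPM and its groups overlapped. *MYH9* thus made up 96.7% and 96.5% of both heavy chains per kilobase in miControl and 93.2% and 93.3% in miR-6133-5p, a difference that was not tested.

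Of the 4 light chains, *MYL9* alone passed the adjusted p-value. *MYL9*, a regulatory light chain, was at 255 and 224 CPM in miControl and at 182 and 174 CPM in miR-6133-5p. Its groups were separate, and its log2 fold change was -0.43 ± 0.11 (SE, edgeR adjusted p = 0.0083), which did not pass when scaled by library totals alone (adjusted p = 0.070). The regulatory light chains *MYL12A* and *MYL12B* and the essential light chain *MYL6* had overlapping groups, with log2 fold changes of -0.07 ± 0.11, -0.06 ± 0.12 and 0.01 ± 0.11. Their 95% intervals lay between -0.32 and 0.25. The exons of *MYL6* lie opposite *SMARCC2* over 16.3% of their bases, and *SMARCC2* was called lower at -1.84 ± 0.12.

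Among the 5 kinases and phosphatase subunits that set myosin activity, *PPP1R12A* alone passed the adjusted p-value. *PPP1R12A*, the subunit that targets the phosphatase to myosin, was at 168 and 205 CPM in miControl and at 123 and 131 CPM in miR-6133-5p. It did not reach the fold threshold, at -0.55 ± 0.12 (SE, edgeR adjusted p = 0.0029), and did not pass when scaled by library totals alone (adjusted p = 0.018). *MYLK*, the myosin light chain kinase, was at 255, 247, 221 and 284 CPM, a log2 fold change of 0.01 ± 0.12 with a 95% interval from -0.26 to 0.28. *ROCK1*, *ROCK2* and *PPP1R12B*, a pair of kinases that act on the myosin light chain and its phosphatase, and a second targeting subunit, had overlapping groups and log2 fold changes of -0.06 ± 0.15, 0.15 ± 0.15 and -0.01 ± 0.13. Kinase activity and light chain phosphorylation were not measured in these libraries.

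At the links of filaments to adhesions and Z-lines, *PDLIM5* fell (ENSG00000163110, chr4:95373008-95589378, + strand). This PDZ and LIM domain protein, which binds α-actinin, was at 203 and 209 CPM in miControl and at 89.4 and 94.1 CPM in miR-6133-5p. It had the narrowest spread among the genes called lower, with a log2 fold change between -1.22 and -1.15 whichever library was left out and an estimate of -1.17 ± 0.10 (SE, edgeR adjusted p = 2.6e-06). *PDLIM7*, of the same family, was lower in both treated libraries but did not pass, at -0.20 ± 0.11, and *TLN2*, a talin, had overlapping groups at -0.07 ± 0.13. Of the intermediate filament genes, vimentin, *VIM*, was at 1853 and 1776 CPM against 2030 and 1555 CPM, a log2 fold change of -0.02 ± 0.12. *DES*, desmin, another marker of stellate cells in tissue, had 0, 0, 1 and 2 counts and was not tested.

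Genes related to these in function were examined by the same test in 2 lists. In the list of actin filament assembly and turnover, 42 genes were tested and 1, or 2.38%, was called in each direction. Of all tested genes 5.54% were called lower and 2.9% higher. *WASF2*, a subunit of the WAVE complex that activates branching, was lower at -0.86 ± 0.11, and *TWF2*, a twinfilin, was higher at 1.49 ± 0.14. The count of lower genes was 0 without replicate 1 of miR-6133-5p and 2 without replicate 2 of either group. The median was -0.13, and at an adjusted p-value below 0.01 and any size 9 genes were lower and 3 higher, *WASF2* and *TWF2* included. The 9 are 21.4% of those tested, where 10.9% of all genes were lower and 7.96% higher by this rule.

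Other smooth muscle and stress fibre genes gave 8 called lower and 0 called higher of 42 tested, with a median of -0.26. The 8 are 19.0% of the list, where 5.54% of all genes were called lower and 2.9% higher. At an unadjusted p-value below 0.05, 7 were higher in edgeR, DESeq2 also called 0 higher, and 1 was called higher without replicate 1 of either group. The largest falls were in *SYNPO2* at -1.80 ± 0.23 and *SYNPO* at -1.38 ± 0.15, which encode actin-binding proteins of the synaptopodin family, in *MYOCD* at -1.76 ± 0.12 and in *NES*, nestin, at -1.49 ± 0.36. *MYOCD* encodes myocardin, the smooth muscle cofactor of SRF, and was at 25.5 and 25.8 CPM in miControl and at 8.11 and 7.05 CPM in miR-6133-5p. At an adjusted p-value below 0.01 and any size, 10 genes of this list were lower, the 8 called among them, and 6 higher. The 10 are 23.8% of those tested, where 10.9% of all genes were lower and 7.96% higher. For the unadjusted p-value the share of all genes is not given here.

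**Figure D3:**
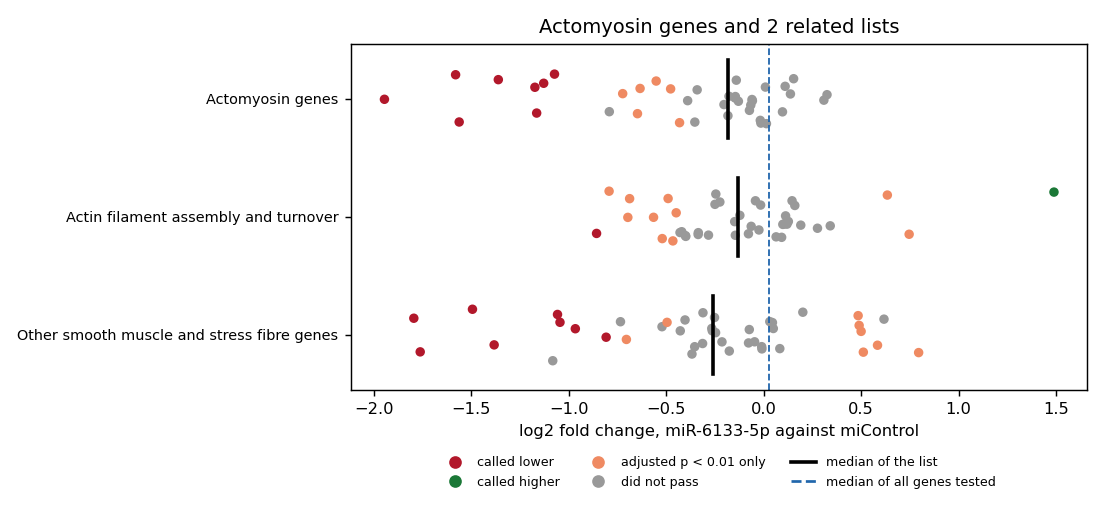
Log2 fold changes of miR-6133-5p against miControl for the tested actomyosin genes and for the 2 related lists, one point per gene with vertical jitter for legibility; black bars are medians of the lists and the dashed line is the median of all tested genes, 0.03. The medians lie at -0.18, -0.13 and -0.26 from top to bottom.

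A miRNA lowers its targets by pairing with them, mostly in the 3′-UTR. The RefSeq table gave the 108-base hairpin of *MIR6133* and no mature sequence of miR-6133-5p under that name, so the bases of its seed are not stated here. Instead each 7-base stretch of the hairpin, in 102 windows, was compared with canonical 3′-UTRs of the tested coding genes other than the 39. Windows were ranked by how far the mean fold change of genes with the complementary letters lay below that of genes without. Hairpin bases 72 to 78 came first, with a difference of -0.28 on the log2 scale. The next window was at -0.24 and the last of the 102 at -0.07, so the difference was negative in every window. The window was thus chosen by the fold changes of these other genes and is described without a test. The stretch around it is shown because the sites that follow are its complement; capitals mark bases 72 to 78.
*MIR6133* hairpin, bases 65 to 94, chr7:133290945-133290974 on GRCh38.p14, + strand: cauguguGAGGGAGgagguuggguauugag

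The complementary letters, CTCCCTC on the transcript strand, occurred in the 3′-UTRs of 2847 other genes, or 21.4%, and in those of 9 of the 39 contractile genes, or 23.1%. Of the other genes 14.0% with the letters and 4.49% without were called lower. The window was chosen by the fold changes of these same genes, so these shares are no independent measure. Among the 39 genes, 3 of the 9 with a site were called lower and 5 of the 30 without, with median log2 fold changes of -0.39 and -0.16. The sites of the 3 called genes, *SRF*, *MYH9* and *TAGLN*, are given on GRCh37 as read along the transcript, with the 7 bases in capitals.
*SRF*, chr6:43147103-43147132, + strand: ctccacccgtcCTCCCTCagcctccccttc
*MYH9*, first site, chr22:36678495-36678524, - strand: tccccttccagCTCCCTCccctgctcagaa
*MYH9*, second site, chr22:36678051-36678080, - strand: ctgtccgctgtCTCCCTCctgattctaaaa
*TAGLN*, chr11:117075280-117075309, + strand: tgccttggcccCTCCCTCccggctgccccc

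The other 6 genes with a site were *TPM1*, lower at the adjusted p-value alone, and *CNN1*, *PDLIM7*, *TLN2*, *PPP1R12B* and *MRTFA*, which did not pass. *PPP1R12B* had 6 sites in a 3′-UTR of 12142 bases and a log2 fold change of -0.01. *ACTA2*, *ACTG2*, *CALD1*, *PDLIM5* and *TPM3* were called lower with no site in the canonical 3′-UTR, though another transcript of *TPM3* had one. Over any annotated transcript, 13 of the 39 genes had a site. Median 3′-UTR length was 2529 bases in the other genes with a site and 1057 in those without, and the part of length in these differences was not tested.

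Replicates of miR-6133-5p differed with transcript length, which bears on the long contractile genes; the lengths used for this were chosen after the values were seen. Over coding genes in 4 equal bins of rising transcript length, the median log2 difference of replicate 2 from replicate 1 of miR-6133-5p was -0.17, -0.07, 0.01 and 0.15, and that of miControl ran from -0.06 to 0.05. Of the 12 contractile genes with transcripts over 6000 bases, 11 were higher in replicate 2 of miR-6133-5p, with a median difference of 0.38 against -0.01 in miControl. Over all 2545 tested coding genes of that length the medians were 0.18 in miR-6133-5p and 0.06 in miControl. The share of those genes higher in replicate 2 is not given here. Of the 8 contractile genes under 1500 bases, 0 were higher, with a median of -0.17. The 12 contractile genes over 6000 bases include *MYH9*, *MYH10*, *FLNC* and *FLNA*, with differences of 0.60, 0.58, 0.52 and 0.46. The median log2 fold change of miR-6133-5p against miControl went from 0.14 in the shortest bin to -0.07 in the longest. The part of this trend in the values of single genes was not tested.

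**Figure D4:**
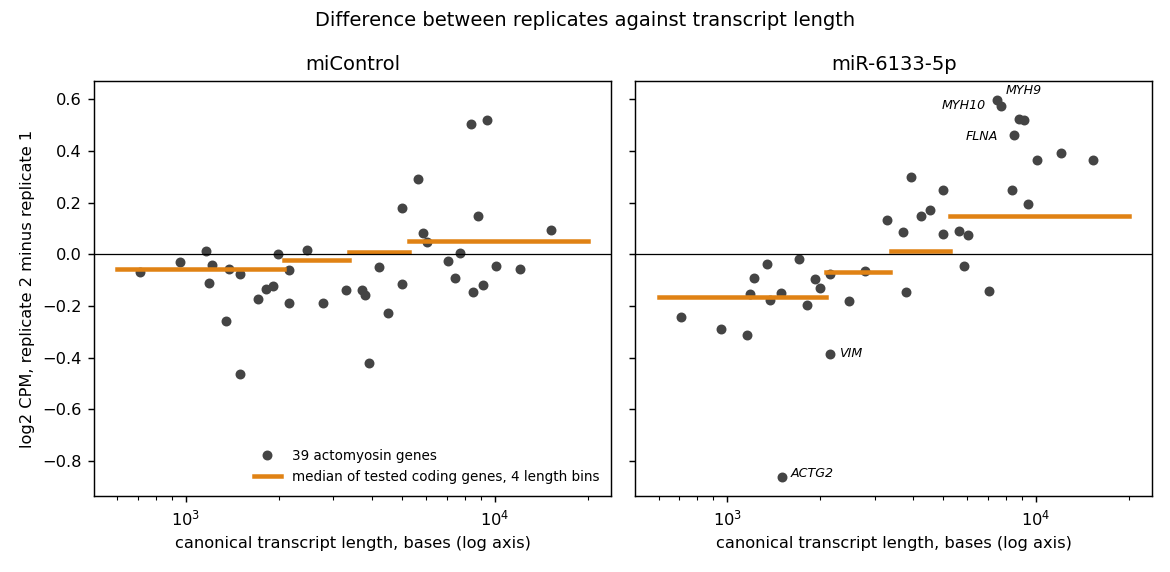
Log2 difference in CPM between replicate 2 and replicate 1 of each group against canonical transcript length on a log axis, with a point for each of the 39 genes and orange bars for the medians of tested coding genes in 4 bins of length, clipped at both ends of the axis. In miR-6133-5p the bars rise from -0.17 to 0.15 and 11 of the 12 contractile genes over 6000 bases lie above 0, while in miControl the bars run from -0.06 to 0.05.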

How the data were processed

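RNA from 4 libraries of LX-2 cells was sequenced as pairs of 150 bases after a TruSeq Stranded mRNA preparation. The authors deposited raw counts per Ensembl gene on GRCh37, made from uniquely placed read pairs; the submitters' processing notes name STAR 2.5.3a, Subread 1.6.4 and featureCounts, and the annotation release and strand setting are not given in the sources used here. Mapped pairs numbered between 30449618 and 55962745 per library, with 1.68 to 1.70 counts for each, and 1.24% to 1.36% of pairs at too many loci were dropped.

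The quasi-likelihood functions glmQLFit and glmQLFTest of edgeR 4.0.16 (R 4.3.3) were run on the whole table after filterByExpr and TMM scaling, following the thresholds of the study's methods, with no block. With 2 libraries against 2 an exact test cannot go below p = 0.333, so p-values rest on variance shared across genes. Standard errors came from the F statistic. Gene positions, exon overlaps, transcript lengths and 3′-UTRs came from GENCODE 44 in GRCh37 coordinates, possibly not the release behind the counts, which held 55665 of the 63677 counted genes, and promoters and the hairpin came from RefSeq on GRCh38.p14. Length comparisons added 0.1 CPM before taking logs.

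The 40 genes, the lists around them and the marker lists were chosen with earlier results of these data known. All 40 are named, and of each of 2 related lists up to 4 called genes per direction with the largest log2 fold change. Some genes and a list of genes that had been planned are not reported here. The match of the miRNA seed that had been planned was replaced by the ranked hairpin windows, because the mature sequence was not in the table used. Alternatives were RLE factors, library totals, DESeq2 1.42.0, no filter, 10 counts in every library, a replicate block, glmTreat and leaving out each library. On simulated data of this comparison over 18252 genes, edgeR found 65.2% of genes changed 2-fold and 95.5% of those changed 4-fold, with 1 false call. The simulation changed 200 genes, gave every gene the same variance setting and held no trend with transcript length. These shares and the false calls therefore need not hold for the measured libraries. Tables and plots were made in Python 3.11.15.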

Additional observations from a re-analysis of the deposited data

How the results depend on the processing

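The 8 contractile genes called lower were also 8 under the replicate block. Deviations of libraries sharing a replicate number correlated at r = 0.049, so the numbers were not taken as pairs, and the block changed no count of contractile or related genes called. By glmTreat, 3 contractile genes, 0 of actin assembly and 3 other smooth muscle genes were called lower, with no share of all genes to set beside them. Scaled by library totals alone, the median of the contractile genes was -0.020, and 2 of them (*ACTN4* and *MRTFA*) were higher at the adjusted p-value. Of the 42 genes tested in each related list, actin assembly had 0 called lower and 2 higher, and the other smooth muscle genes had 1 called higher. By that scaling 709 of all 18252 tested genes were called lower and 977 higher. With no filter, 1 contractile gene was higher at the adjusted p-value. In that setting 1 other smooth muscle gene was called higher, as were 699 of 33293 genes. Actin assembly had 2 called lower with RLE, with DESeq2 and with 10 counts in every library. Over all genes these settings called 1036 of 18252, 1026 of 18252 and 1030 of 16333 lower. The counts with a library left out, which come next, rest on a lone library in 1 group. They have no share of all genes beside them, so they cannot tell a change in these genes from one in the whole table. The median log2 fold change of all genes lay between -0.0050 and 0.018 in those fits. Leaving out each library gave 6 to 9 contractile genes called lower, 6 to 19 contractile genes lower and 0 to 3 higher at the adjusted p-value, medians from -0.32 to -0.18, 0 to 2 lower in actin assembly and 0 to 1 higher among other smooth muscle genes.

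Signs turned only for genes that did not pass. With library totals alone, *ACTG1* came to 0.023, *MYH10* to 0.016, *MYL12A* to 0.091, *MYL12B* to 0.11, *PPP1R12B* to 0.15, *ROCK1* to 0.10, *TLN2* to 0.10, *VIM* to 0.15, *PALLD* to 0.034 and *MRTFB* to 0.019, each by the shift of 0.16 that this scaling gives all genes, and *MYLK* came to -0.0030 with RLE, -0.0031 with DESeq2 and -0.0025 with the block. As single libraries were left out, TAGLN2 ranged from -0.012 to 0.17, MYH10 from -0.48 to 0.094, MYL6 from -0.13 to 0.11, MYL12A from -0.24 to 0.05, MYL12B from -0.24 to 0.075, MYLK from -0.20 to 0.16, PPP1R12B from -0.23 to 0.14, ROCK1 from -0.31 to 0.20, ROCK2 from -0.088 to 0.40, FLNA from -0.45 to 0.012, FLNC from -0.16 to 0.36, TLN2 from -0.29 to 0.10, VIM from -0.24 to 0.15 and MRTFB from -0.45 to 0.075. The cause of the turns outside that scaling was not tested. A count of 3 was at most 0.061 CPM, so that *DES* lay at or under what these depths resolve.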
